A study of Mus musculus with 6 samples.

Results

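The hypothalamic patterning and neuroendocrine genes described here were Otp, Sim1, Nkx2-2, Fezf1, Hmx2, Hmx3, Dbx1, Pomc and Foxb1. They were chosen by name, and each is represented by every non-control probe set that the platform annotation assigns to that symbol alone. All 9 symbols had such a probe set, 12 probe sets in all, among 18193 genes and 45037 probe sets on the array. RNA of E13.5 mouse embryos (the number is the embryonic day) was hybridised to Affymetrix MOE430 2.0 arrays, and 3 arrays of Olig2-/- embryos (replicates 2, 4 and 5) and 3 arrays of Olig2+/+ embryos (replicates 1, 4 and 5) were analysed. Each replicate pooled RNA of 3 brains. The series design states 5 replicates per genotype, of which the 3 named above for each genotype were available here. Olig2 is a basic helix-loop-helix transcription factor of the ventral neural tube and forebrain. The sources used here do not give how the Olig2 allele was made, nor the strain or sex of the embryos.

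The hypothalamus forms from the ventral part of the anterior forebrain, next to the telencephalon and the prethalamus. Transcription factors with restricted domains divide it early and then specify its neuroendocrine neurons, whose peptides act on the pituitary and on feeding. Otp and Sim1 act in the paraventricular and supraoptic lineages, Fezf1 in the ventromedial nucleus, Hmx2 and Hmx3 in the tuberal region, Foxb1 in the mammillary body, and Pomc encodes a peptide precursor of arcuate neurons. The tissue is called ventral telencephalon in the sample labels and ventral forebrain in the series design, and the sources used here do not state whether the dissected piece held hypothalamus. Because the arrays measured bulk tissue, fewer cells of a type and less RNA per cell cannot be told apart.

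The labelled tissue was checked against 16 genes of the ventral telencephalon, of which 14 were named on the array and 13 were kept by the filter on dim probe sets. A probe set was kept when it lay above its array's median on at least 3 of the 6 arrays. Of the 13, 5 were higher and 8 lower in the knockout, none past the adjusted threshold in limma. Gsx2 (log2 difference 0.54, limma adjusted p = 0.511) and Sp8 (0.45, limma adjusted p = 0.511), homeobox and zinc finger factors of the lateral ganglionic eminence, were higher without overlap and were the 2 genes with unadjusted p below 0.05. Over all kept probe sets, 4.98% were higher at that level, 8.96% were higher without overlap and 7.25% lower without overlap. Lhx6, a factor of medial eminence interneurons, was the 1 lower gene without overlap, with a log2 difference of -0.33 at its brighter probe set (limma adjusted p = 0.525) and of 0.02, with overlapping groups, at the other. The member not kept was Nkx2-1, which patterns both the hypothalamus and the medial ganglionic eminence, at 2.69 to 3.36 over the arrays. Olig2 itself averaged 7.59 ± 0.15 on knockout arrays, against 8.28 ± 0.12 on wild-type arrays (log2 expression, SD, n = 3 each), and the groups did not overlap. Its probe set could not be placed relative to the deletion, so it checks the labels only in part. The log2 difference was -0.69 for Olig2 and 1.69 for Olig1, each at limma adjusted p = 0.511. The targeted gene itself therefore did not pass the adjusted threshold.

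Of the 9 genes, 6 were kept (Otp, Sim1, Nkx2-2, Fezf1, Dbx1 and Pomc), and each lay above the median on all 6 arrays, so neither genotype alone carried one through the filter. Hmx2, Hmx3 and Foxb1 were not kept and were not tested. None of the 6 genes passed the adjusted threshold of 0.05 in limma, where 0% of 22565 kept probe sets passed. None had an unadjusted p below 0.05 either, against 9.4% of kept probe sets (4.98% higher and 4.42% lower in the knockout). The genotypes overlapped for all 6, while they did not overlap for 16.2% of kept probe sets (8.96% higher and 7.25% lower). By sign alone, 4 of the 6 were higher and 2 lower in the knockout, with a median log2 difference of 0.04, against 50.7% of kept probe sets above 0 and a median of 0.00 over 10630 kept genes. The sign counts changed with the arrays used: 2 of 6 were higher when knockout replicate 5 was left out, and likewise 2 of 6 for wild-type replicate 1. The labels do not say whether replicates came from separate litters, so p-values rest on the spread between 6 arrays of pooled RNA, and that small number limits the precision of every difference.

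**Figure D1:**
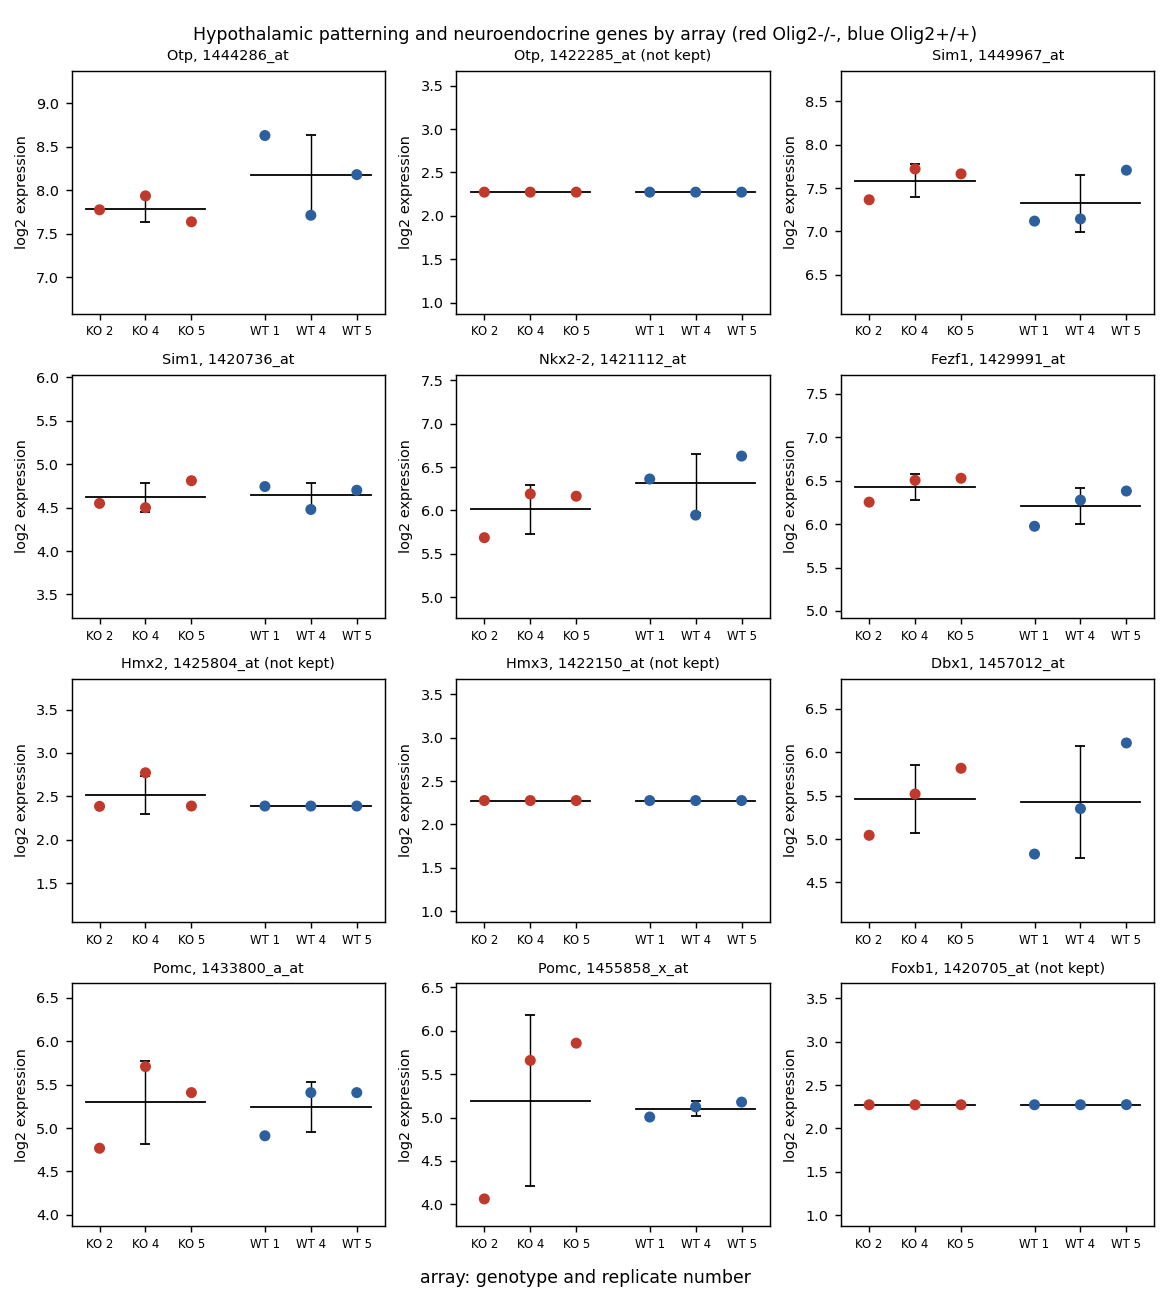
Log2 expression (vertical axis) of the 12 probe sets of the 9 genes on each array (horizontal axis), with Olig2-/- arrays in red and Olig2+/+ arrays in blue. Bars are the genotype mean and lines the SD (n = 3). Every panel spans the same number of log2 units around its own mean, so levels differ between panels. The genotypes overlap in every panel, and the 4 probe sets that were not kept show no spread except for Hmx2, at 2.77 on knockout replicate 4.

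Upstream sequence is shown for 3 genes whose array values differ in pattern, as described below: Otp, and the pair Dbx1 and Pomc, which had the widest spread within a genotype. Each is the 250 bases before the start site annotated by RefSeq on GRCm38.p6, at the outer end of the gene, 5′ to 3′ on the gene's own strand. Capitals mark the E-box CANNTG, the core word bound by basic helix-loop-helix factors, which reads the same on both strands. No 2 matches overlapped.
Otp (chr13:94875386-94875635, plus strand): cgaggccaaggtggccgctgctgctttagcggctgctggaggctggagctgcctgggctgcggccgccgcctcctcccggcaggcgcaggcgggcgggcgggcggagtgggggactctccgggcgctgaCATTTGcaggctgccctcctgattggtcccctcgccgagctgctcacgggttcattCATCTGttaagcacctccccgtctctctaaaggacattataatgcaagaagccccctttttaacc
Dbx1 (chr7:49636836-49637085, minus strand): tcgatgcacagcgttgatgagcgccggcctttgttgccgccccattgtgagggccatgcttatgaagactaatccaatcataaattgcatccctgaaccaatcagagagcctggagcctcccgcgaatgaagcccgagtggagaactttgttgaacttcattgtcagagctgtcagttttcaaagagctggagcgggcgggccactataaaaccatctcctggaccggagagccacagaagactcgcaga
Pomc (chr12:3954695-3954944, plus strand): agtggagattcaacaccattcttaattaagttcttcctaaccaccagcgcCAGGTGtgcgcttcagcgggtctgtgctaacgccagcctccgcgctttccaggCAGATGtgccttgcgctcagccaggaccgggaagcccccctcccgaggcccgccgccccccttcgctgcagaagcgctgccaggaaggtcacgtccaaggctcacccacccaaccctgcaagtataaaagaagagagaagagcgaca
The windows of Otp and Pomc held 2 E-boxes each, as did that of Sim1. Nkx2-2 held 3, and Fezf1, Hmx3 and Dbx1 held none. Unlike the windows shown, those of Sim1, Nkx2-2, Fezf1 and Hmx3 precede a start that lies within the gene, not at its outer end. Hmx2 has 2 annotated starts, with 1 E-box before the outer start and none before the inner. Of 32851 windows of the same length, 66.2% held at least 1 E-box and 31.8% at least 2. More specific forms were also counted. CAGATG or its reverse complement CATCTG stood in the windows of Otp, Sim1, Nkx2-2, Hmx2 and Pomc, and in 14.4% of all windows. CAGCTG and CATATG stood in no window of these genes, against 13.0% and 3.46% of all windows. These matches describe the letters only, and binding was not measured. Of the 9 genes, 8 had an entry in the table, and Foxb1 had none.

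Otp and Sim1, the factors of the paraventricular and supraoptic lineages, had opposite signs at their brightest probe sets, with overlapping genotypes and 95% intervals that include 0. Otp (chr13:94875636-94885125, GRCm38.p6) encodes a homeodomain protein needed for several neuroendocrine neuron types. It read 7.77, 7.94 and 7.64 on knockout replicates 2, 4 and 5, against 8.63, 7.71 and 8.18 on wild-type replicates 1, 4 and 5 (log2 expression). Wild-type replicates 1 and 5 were the highest, and wild-type replicate 4 lay among the knockout arrays. The mean was 7.78 ± 0.15 on knockout arrays, against 8.17 ± 0.46 on wild-type arrays (SD, n = 3 each), a log2 difference of -0.39 (SE 0.24, 95% interval -0.98 to 0.19, limma adjusted p = 0.544). Its size rested on which wild-type arrays were used: the difference was -0.16 when wild-type replicate 1 was left out and -0.62 when wild-type replicate 4 was (limma adjusted p = 0.26). A second Otp probe set, designed on a RefSeq transcript, read 2.27 on all 6 arrays, which is the floor of the deposited values, and gave no information on the genotype.

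Sim1 (chr10:50894698-50989156, GRCm38.p6), a basic helix-loop-helix PAS factor of the same lineages that works as a dimer with Arnt2, did not follow Otp. Its brighter probe set read 7.37, 7.72 and 7.66 on knockout replicates 2, 4 and 5, against 7.12, 7.14 and 7.71 on wild-type replicates 1, 4 and 5 (log2 expression). All knockout arrays lay above wild-type replicates 1 and 4, and wild-type replicate 5 lay among the knockout arrays. The log2 difference was 0.26 (SE 0.19, 95% interval -0.21 to 0.73, limma adjusted p = 0.584). Leaving out wild-type replicate 5 gave 0.45 (limma adjusted p = 0.577), and leaving out wild-type replicate 1 gave 0.16. The dimmer probe set of Sim1 ranged from 4.50 to 4.81 in the knockout, against 4.48 to 4.74 in the wild type, so that the log2 difference was -0.02, with an SE of 0.12 and a 95% interval of -0.32 to 0.27. The probe sets of Sim1 therefore disagreed in sign, and the 95% interval of each includes 0.

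Nkx2-2 and Dbx1 encode homeodomain factors that mark dorsoventral domains of the neural tube, and both also label parts of the hypothalamus. Nkx2-2 (chr2:147176485-147195434, GRCm38.p6), which is induced by Sonic hedgehog, read 5.69, 6.19 and 6.16 on knockout replicates 2, 4 and 5, against 6.36, 5.95 and 6.63 on wild-type replicates 1, 4 and 5 (log2 expression). Knockout replicate 2 was the lowest array and wild-type replicate 5 the highest, and wild-type replicate 4 lay below the remaining knockout arrays. The log2 difference was -0.30 (SE 0.22, 95% interval -0.84 to 0.25, limma adjusted p = 0.584). Leaving out knockout replicate 2 gave -0.13, while leaving out wild-type replicate 5 gave -0.14 and leaving out wild-type replicate 4 gave -0.48. Shh, the inducing signal and a gene of the fixed list of other hypothalamic genes, differed by -0.15 on the log2 scale (limma adjusted p = 0.703).

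Dbx1 (chr7:49631499-49636835, GRCm38.p6) had the widest spread within a genotype among the representative probe sets of the 6 genes. It read 5.04, 5.52 and 5.82 on knockout replicates 2, 4 and 5, against 4.83, 5.35 and 6.11 on wild-type replicates 1, 4 and 5 (log2 expression). Both the lowest and the highest array were wild type. The mean was 5.46 ± 0.39 on knockout arrays, against 5.43 ± 0.64 on wild-type arrays (SD, n = 3 each), a log2 difference of 0.03 (SE 0.36, 95% interval -0.87 to 0.93, limma adjusted p = 0.98). The interval spans almost a log2 unit on either side, so the near-zero mean difference does not show that the genotypes were alike. The direction turned with the arrays used, from -0.27 when wild-type replicate 1 was left out to 0.37 when wild-type replicate 5 was. The pooled within-genotype SD of Dbx1 was 0.53, at the 96.5th percentile of kept probe sets.

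Of Fezf1, Hmx2, Hmx3 and Foxb1, transcription factors of the tuberal and mammillary hypothalamus, only Fezf1 was kept by the filter. Sim1, described above and kept, was also listed for the mammillary region. Fezf1 (chr6:23245044-23250936, GRCm38.p6), a zinc finger repressor needed for the ventromedial nucleus, read 6.25, 6.51 and 6.53 on knockout replicates 2, 4 and 5, against 5.98, 6.28 and 6.38 on wild-type replicates 1, 4 and 5 (log2 expression). Knockout replicates 4 and 5 were the highest arrays and wild-type replicate 1 the lowest, while knockout replicate 2 lay between wild-type arrays. The log2 difference was 0.22 (SE 0.14, 95% interval -0.12 to 0.56, limma adjusted p = 0.552), and it was 0.10 when wild-type replicate 1 was left out. Hmx2 (chr7:131548757-131558014) and Hmx3 (chr7:131541532-131546027), neighbouring homeobox genes of the same strand on GRCm38.p6, were near the floor. Hmx2 read 2.38, 2.77 and 2.39 in the knockout, against 2.39 on each wild-type array, so knockout replicate 4 was the single array above the others. Hmx3 read 2.28 on all 6 arrays, and Foxb1 (chr9:69757710-69760940, GRCm38.p6), a forkhead factor of the mammillary body, read 2.27 on all 6. With values at the floor, a difference between the genotypes was not detectable for these genes. Only 1 probe set represents each of them.

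Pomc (chr12:3954945-3960643, GRCm38.p6) encodes the precursor of adrenocorticotropin, melanocyte-stimulating hormones and beta-endorphin. Its representative probe set read 4.77, 5.71 and 5.41 on knockout replicates 2, 4 and 5, against 4.91, 5.41 and 5.41 on wild-type replicates 1, 4 and 5 (log2 expression). Knockout replicate 2 and wild-type replicate 1 were the lowest arrays. The value on knockout replicate 5 and wild-type replicates 4 and 5 was identical to the last deposited digit, so these 3 arrays have no order. The log2 difference was 0.05 (SE 0.27, 95% interval -0.62 to 0.73, limma adjusted p = 0.947), and it turned to -0.15 when knockout replicate 4 was left out and -0.11 when wild-type replicate 1 was. Leaving out knockout replicate 2 gave 0.32.

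The second Pomc probe set differed much more between knockout arrays than between wild-type arrays. It read 4.06, 5.66 and 5.86 on knockout replicates 2, 4 and 5, against 5.01, 5.12 and 5.18 on wild-type replicates 1, 4 and 5 (log2 expression). Knockout replicates 4 and 5 lay above all wild-type arrays and knockout replicate 2 below them. The log2 difference was 0.09 (SE 0.48, 95% interval -1.08 to 1.26, limma adjusted p = 0.947). Pituitary cells also make Pomc, and all 9 pituitary genes named on the array, of 13 listed, were not kept, with no value above 2.38. Their summed level was 5.45 to 5.46 on knockout arrays, against 5.45 to 5.45 on wild-type arrays (log2 of the sum). Lhx3, Pitx1, Cga and Tbx19 lay at the floor on every array. A floor value does not by itself show that a transcript was absent, and the part of pituitary cells in the Pomc values was not tested.

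**Figure D2:**
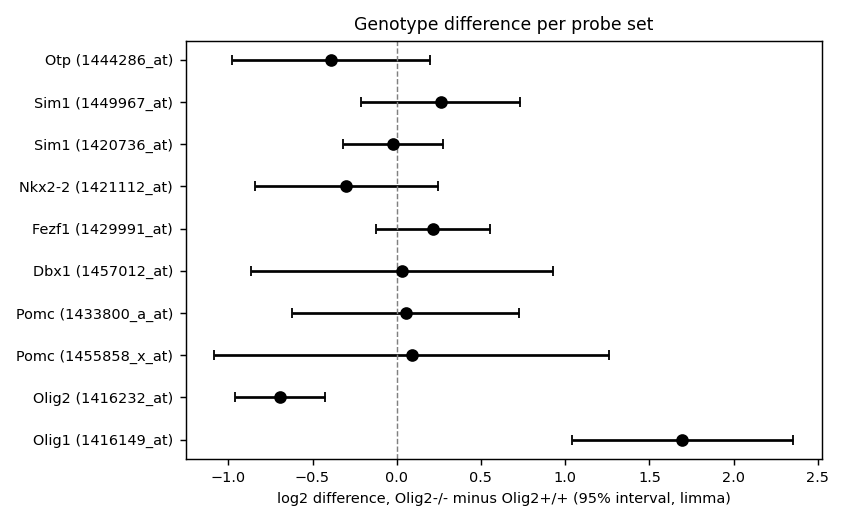
Log2 difference between Olig2-/- and Olig2+/+ arrays (horizontal axis, points) with limma's 95% interval (lines) for the 8 kept probe sets of the 6 genes and, for scale, Olig2 and Olig1. The intervals of all 8 include 0, and the second Pomc probe set has the widest, from -1.08 to 1.26.

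Within each genotype several of the genes ranked the arrays alike. For each gene the distance of an array from the mean of the other arrays of its genotype was taken. Knockout replicate 2 was the lowest knockout array for 5 of the 6 genes, the exception being Otp, with a median distance of -0.41 on the log2 scale. Over all 10630 kept genes it was the lowest for 47%, with a median distance of -0.05. Knockout replicate 4 was the highest knockout array for 4 of 6 genes (44% of all kept genes). Among wild-type arrays, replicate 5 was the highest for 4 of 6 genes (32.2% of all kept genes), with a median distance of 0.36, and replicate 1 the lowest for 4 of 6 (35.3%), at -0.33. At their representative probe sets, Sim1, Fezf1, Dbx1 and Pomc were lowest on knockout replicate 2 and on wild-type replicate 1 within their genotypes. Otp was instead highest on wild-type replicate 1. The dimmer probe set of Sim1 read 4.55, 4.50 and 4.81 on knockout replicates 2, 4 and 5. On wild-type replicates 1, 4 and 5 it read 4.74, 4.48 and 4.70. It was thus lowest on replicate 4 of each genotype, and wild-type replicate 1 was its highest wild-type array. The counts above describe the representative probe sets of 6 genes on single arrays and were not tested. Otp, Nkx2-2, Dbx1 and Pomc had pooled within-genotype SDs at the 85.2nd to 96.5th percentile of kept probe sets, and the second Pomc probe set lay at the 98.5th. Sim1 and Fezf1 lay at the 78.9th and 58.3rd.

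**Figure D3:**
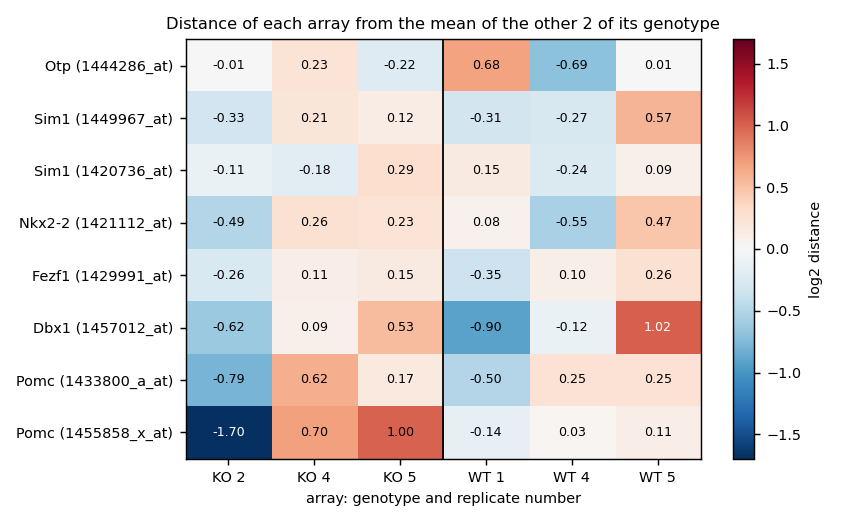
Distance of each array (columns, Olig2-/- left of the line) from the mean of the other 2 arrays of its genotype, on the log2 scale, for the 8 kept probe sets (rows). The column of knockout replicate 2 is below 0 throughout, down to -1.70 for the second Pomc probe set, and wild-type replicate 5 is at 1.02 for Dbx1.

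Some markers of other cells moved with these array patterns. Of 15 meningeal and mesenchymal genes, 4 were kept. Over all 15, knockout replicate 2 had the highest knockout value for 11 (20.6% of all kept genes), and wild-type replicate 1 the highest wild-type value for 10 (40.8%). Among the 4 kept it was 3 for each of these arrays, namely Postn, Col3a1 and Zic1. The remaining kept gene, Foxd1, read 6.15, 6.15 and 6.39 on knockout replicates 2, 4 and 5. On wild-type replicates 1, 4 and 5 it read 5.81, 5.64 and 6.52, so it did not share the pattern. Postn, a matrix protein of mesenchyme, read 7.93, 3.56 and 3.36 on knockout replicates 2, 4 and 5, against 3.86, 3.56 and 3.51 on wild-type replicates 1, 4 and 5 (log2 expression). Col3a1, a fibrillar collagen, read 8.10, 4.04 and 4.09 in the knockout, against 6.20, 4.35 and 4.67 in the wild type, so knockout replicate 2 and then wild-type replicate 1 stood above the rest. The summed level of the list was 11.84 to 12.34 on knockout arrays, against 12.17 to 12.37 on wild-type arrays (log2 of the sum). Zic1 alone read 11.77 to 12.12 in the knockout, against 12.11 to 12.31 in the wild type. It made up most of the sum, which therefore says little of the dimmer genes. Foxc2 lay at the floor on all arrays. The part of this tissue in the low values of the representative probe sets of Sim1, Fezf1, Dbx1 and Pomc on these arrays was not tested.

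The kept globins Hba-x, Hbb-y and Hbb-bh1 were lowest on knockout replicate 2 and wild-type replicate 1 within their genotypes. Alas2, the other kept erythroid gene, did not share this order. Of 4 kept erythroid genes, among 8 named on the array and 10 listed, wild-type replicate 1 had the lowest wild-type value for 3 (35.3% of all kept genes) and knockout replicate 2 the lowest knockout value for 3 (47%). Over the 8 on the array these counts were also 3 and 3, which is close to or below those shares. The embryonic globin Hbb-bh1 read 8.19, 9.41 and 9.05 on knockout replicates 2, 4 and 5, against 7.95, 8.14 and 9.48 on wild-type replicates 1, 4 and 5 (log2 expression). The summed level of the list was 14.10 to 14.23 on knockout arrays, against 14.02 to 14.25 on wild-type arrays (log2 of the sum). Most of it was Hbb-y, at 13.94 to 14.11 over the arrays, and 3 genes of the list were near the floor on all arrays. Whether blood content bears on the values of the brighter Sim1 probe set, whose array order Hbb-bh1 resembled, was not tested. Of 9 midbrain and hindbrain genes named on the array, 7 lay at the floor throughout, among them En1, En2, Hoxa2 and Hoxb2.

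By sign, most genes listed for the adjoining thalamus and prethalamus were lower in the knockout. The list was not split, so a change of the prethalamus alone is not shown. Of 15 listed, 13 were named on the array and kept, 3 of them higher and 10 lower in the knockout, none past the adjusted threshold in limma, with a median log2 difference of -0.52. Unadjusted p was below 0.05 for 6, all lower (4.42% of all kept probe sets were lower at that level). The groups did not overlap for 5, also all lower (7.25% of all kept probe sets). The summed level was 12.67 to 12.83 on knockout arrays, against 12.95 to 13.17 on wild-type arrays (log2 of the sum), without overlap. Knockout replicate 2 had the lowest knockout value for 9 of the 13 (47% of all kept genes). Among the lower genes, Gbx2 (log2 difference -1.38) and Rora (-1.29) differed most and Dlx1 (-0.12) and Dlx2 (-0.15) least. Lhx2, Lhx5 and Pax6 were the higher genes. The list was written with results of these data known, and it shares Six3 and Lhx5 with the list of other hypothalamic genes. It also shares Dlx1 and Dlx2 with the ventral telencephalon genes. The part of thalamus and prethalamus in the values of the 6 genes was not tested.

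**Figure D4:**
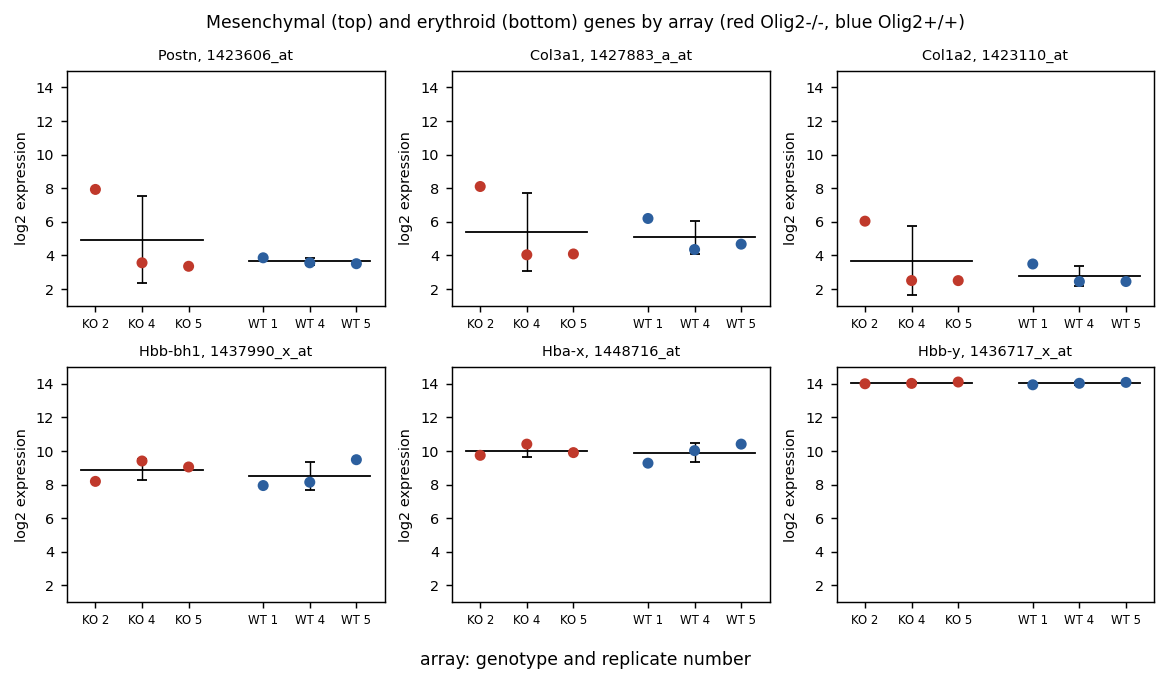
Log2 expression (vertical axis) of 3 mesenchymal genes (top) and 3 erythroid genes (bottom) on each array (horizontal axis), Olig2-/- in red and Olig2+/+ in blue, with the genotype mean and SD (n = 3). Postn, Col3a1 and Col1a2 are highest on knockout replicate 2, where Postn reads 7.93, and Hbb-bh1 is low on knockout replicate 2 and wild-type replicates 1 and 4.

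The 42 other hypothalamic regulators listed beside these genes did not pass either. Of 37 named on the array 19 were kept, 6 of them higher and 13 lower in the knockout, none past the adjusted threshold in limma, with a median log2 difference of -0.13. Unadjusted p was below 0.05 for 2 of the 19, both lower (4.42% of all kept probe sets were lower at that level). Six3, a homeobox gene of the anterior forebrain and eye field, read 7.47, 7.44 and 7.50 in the knockout, against 9.02, 7.90 and 8.16 in the wild type (log2 expression). All knockout arrays lay below all wild-type arrays, as for 7.25% of kept probe sets in that direction. The knockout values lay within a narrow band, and the log2 difference was -0.89 (limma adjusted p = 0.511). Arnt2, the dimer partner of Sim1, read 9.38, 9.40 and 9.28 in the knockout, against 9.96, 9.47 and 9.70 in the wild type, a log2 difference of -0.35 (limma adjusted p = 0.511). A second Arnt2 probe set differed by -0.38 and the third by 0.04 on the log2 scale. Arnt2 and Sim1 at its brighter probe set had opposite signs.

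Next by p in that list were Foxa1 (log2 difference -0.57, limma adjusted p = 0.522) and the imprinted gene Peg10 (-0.63, limma adjusted p = 0.586), both dim and above the median on 3 arrays only. Six6, a relative of Six3, read 3.69, 4.64 and 4.55 on knockout replicates 2, 4 and 5, against 4.15, 4.30 and 4.29 on wild-type replicates 1, 4 and 5 (log2 expression). Knockout replicate 2 was again below all other arrays and replicates 4 and 5 above all wild-type arrays, the order seen for the second Pomc probe set. Rax, a homeobox gene of the early hypothalamus and retina, read 2.32 to 2.35 and was not kept.

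Among neuropeptides and the enzymes that process or mark peptide neurons, 9 of 21 genes named on the array were kept, 5 higher and 4 lower in the knockout, none past the adjusted threshold in limma, with a median log2 difference of 0.17. The hormones of the paraventricular lineage that act after Otp and Sim1, Avp, Oxt, Trh and Crh, were not kept, with no value above 3.06. Sst, the peptide somatostatin, made in the hypothalamus and also in telencephalic interneurons, was kept on all 6 arrays at 7.77 to 8.02 in the knockout, against 7.82 to 8.05 in the wild type, with a log2 difference of 0.00 (95% interval -0.26 to 0.26). Pmch, the precursor of melanin-concentrating hormone of the lateral hypothalamus, read 5.77, 7.13 and 6.99 on knockout replicates 2, 4 and 5, against 6.03, 5.42 and 6.01 on wild-type replicates 1, 4 and 5 (log2 expression). Knockout replicates 4 and 5 were above all other arrays, and knockout replicate 2 lay among the wild type. The log2 difference was 0.81 (limma adjusted p = 0.513), and its 95% interval, -0.17 to 1.79, includes 0.

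Cartpt, a peptide that Pomc neurons of the arcuate nucleus also make, read 5.31, 6.25 and 6.14 on knockout replicates 2, 4 and 5, against 5.09, 5.38 and 5.75 on wild-type replicates 1, 4 and 5 (log2 expression). Here too knockout replicates 4 and 5 were the highest arrays and knockout replicate 2 was not, and the log2 difference was 0.50 (limma adjusted p = 0.541). Th, the rate-limiting enzyme of dopamine synthesis, differed by 0.32 on the log2 scale (limma adjusted p = 0.515), with overlapping groups. Cpe, a carboxypeptidase that trims peptide hormones, read 12.58, 12.46 and 12.58 in the knockout, against 12.45, 12.32 and 12.34 in the wild type, a log2 difference of 0.17 (limma adjusted p = 0.511). A second Cpe probe set read 2.27 on every array. The groups of the first did not overlap, as for 8.96% of kept probe sets in that direction, and knockout replicate 2 did not stand below the other knockout arrays there.

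**Figure D5:**
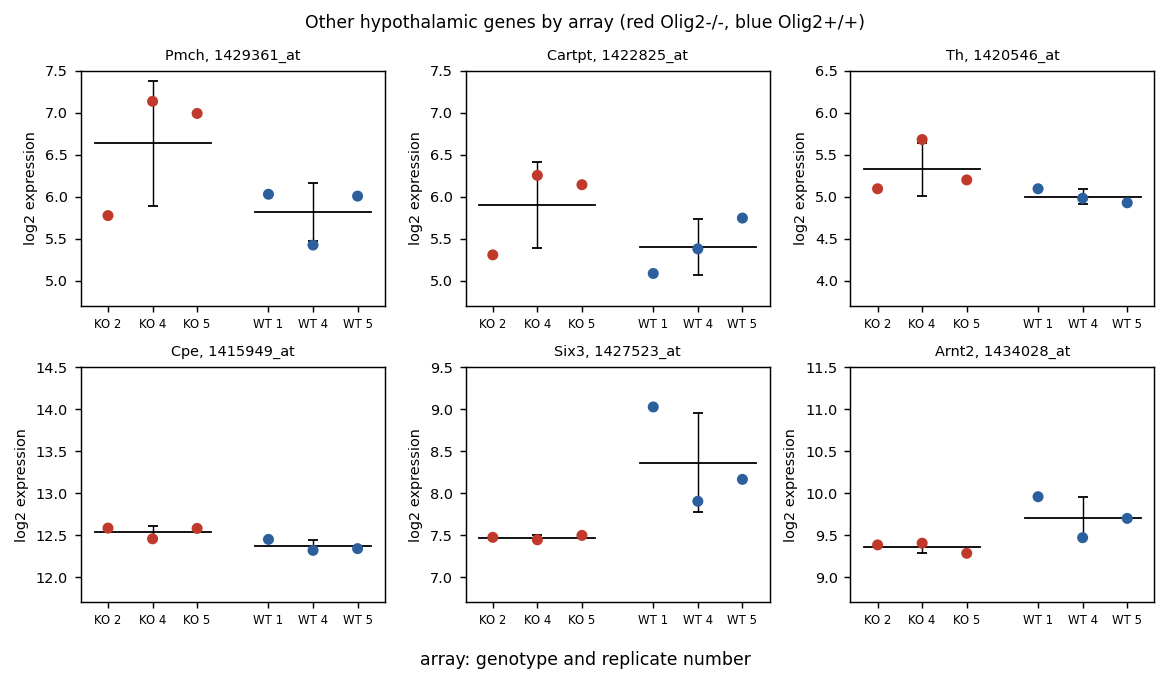
Log2 expression (vertical axis) of Pmch, Cartpt, Th, Cpe, Six3 and Arnt2 on each array (horizontal axis), Olig2-/- in red and Olig2+/+ in blue, with the genotype mean and SD (n = 3). Pmch and Cartpt are highest on knockout replicates 4 and 5, and Six3 reads 7.44 to 7.50 in the knockout, below all wild-type arrays.

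The genes most alike in array pattern differed from member to member. Likeness was Pearson's r over the 6 arrays, taken against kept genes with a range of at least 1 on the log2 scale (683, or 682 for Dbx1), and the highest values of so many comparisons over 6 points are a description only. Otp was most like Peg10 (0.99), Rab11fip4 (0.98) and Znrf1 (0.98), with 109 genes above 0.9. Sim1 was most like Hbb-bh1 (0.96), B230307C23Rik (0.96) and Cab39l (0.91), and Fezf1 like Cab39l (0.98), Rad1 (0.97) and Taf15 (0.95). Nkx2-2 was most like Lzts3 (0.95), B130055M24Rik (0.94) and Nrp (0.93), and Dbx1 like Has3 (0.93), Adat2 (0.91) and B230307C23Rik (0.89). Pomc had no gene above 0.9, the nearest being Fgf14 (0.88), Mri1 (0.88) and Gpr50 (0.85). Peg10 stood in the list of other hypothalamic genes, and no other gene of the lists of hypothalamic regulators or neuropeptides was among these.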

How the data were processed

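The authors deposited log2 expression values, 1 for each probe set and array. As the design text and the submitters' processing notes state, images went through GCOS and MAS5, and GCRMA quantile-normalised, background-corrected and summarised the probes. A filter on detection is described there, but the table holds 45101 probe sets, of which 64 AFFX controls were left out. Array medians were 3.14 to 3.19, and 33.2% to 33.7% of values per array lay within 0.03 of the floor at 2.27, where differences are compressed. Groups and replicate numbers come from the sample titles. Of the non-control probe sets, 34945 had 1 gene symbol in the platform annotation, 932 several and 9160 none here. A gene was represented by its brightest kept probe set, or its brightest if none was kept, and other probe sets of the 9 genes are stated. Genotypes were compared on the 22565 kept probe sets by limma's moderated test (version 3.58.1, R 4.3.3; lmFit, eBayes), two-sided, as knockout minus wild type, and Benjamini-Hochberg adjustment over all of them, a step tested on simulated data. Summed levels add unlogged values over a list. Named beside the 9 genes were the 4 of lowest p in each list of other hypothalamic genes, Nkx2-1, Rax, Six6, Olig2 and Olig1, and the 3 most alike genes per member; Shh, Sst and the markers of the tissue and of other cells were named after their values were seen. The genes, lists and alternatives were chosen with earlier results of these data known. Alternatives were other filters, normalizations and variance models, array weights, a replicate block, averaged probe sets and arrays left out.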

Additional observations from a re-analysis of the deposited data

How the results depend on the processing

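Across 16 alternatives none of the 6 tested genes passed the adjusted threshold in 93 refitted values (limma), and 0 probe sets passed in the 15 settings that refitted all of them. Otp stayed lower and Sim1 higher in 16 alternatives each, and Nkx2-2 stayed lower and Fezf1 higher in 15 each, since averaging probe sets applies only to genes with several. Dbx1 and Pomc changed sign in 8 of the refits: with arrays left out singly, Dbx1 ranged from -0.27 to 0.37 and Pomc from -0.15 to 0.32, and Dbx1 was -0.25 with array weights. An unadjusted p below 0.05 appeared for Otp without wild-type replicate 4 (0.0173) and with knockout replicate 2 also left out (0.0487), and for Sim1 without wild-type replicate 5 (0.0215). The count of probe sets at that level, 2121, ranged from 1121 (knockout replicate 5 left out) to 3490 (wild-type replicate 4 left out) and was 3491 with array weights and 3276 in the 4-array fit that lacks knockout replicate 2 and also wild-type replicate 4. It was also moved by over 1.5 times by leaving out knockout replicate 4 (1205) or wild-type replicate 1 (1402). The cause was not tested.

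Both genotypes have a replicate 4 and a replicate 5, and nothing in the labels ties equal numbers to a litter or a day. Deviations from the genotype means correlated at -0.29 for number 4 and 0.32 for number 5 across probe sets, so the numbers were not taken as pairs. With the number as a block, 0 probe sets passed, 2014 had unadjusted p below 0.05, Dbx1 was -0.061 and Otp -0.16. Knockout replicate 2 and wild-type replicate 1 have no partner of the same number, so the differences in that fit rest on replicates 4 and 5 only. The floor limits Hmx2, Hmx3, Foxb1 and the second Otp probe set, for which no change could be seen.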

Other observations

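Several probe sets of regional factors read at or near the floor beside higher values of another probe set of the gene or of a gene of its lineage. For Six3, 2 of 3 probe sets read 2.28 to 2.31 on every array while the third read 7.44 to 9.02. For Nkx2-1 the single probe set read 2.69 to 3.36, while the brightest probe set of Lhx6, which depends on Nkx2-1 in the medial ganglionic eminence of the mouse, read 8.22 to 8.49 in the knockout and 8.50 to 9.10 in the wild type. The other Lhx6 probe set read 4.75 to 5.43 over the arrays. A floor value of Hmx2, Hmx3 or Foxb1 does not by itself show that the transcript was absent.

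Identical values on 3 or more arrays, as for the representative probe set of Pomc, occurred for 1235 of the 22565 kept probe sets (5.47%). In such probe sets the arrays that share a value cannot be ordered, and an SD computed from them is smaller.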
